A study of Arabis alpina with 23 samples.

Results

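Axillary buds of Arabis alpina sampled after 7 weeks at 4 °C were compared with shoot apical meristems sampled after 4 weeks at 4 °C, to ask whether the late cold bud resembles an apex at an earlier point of floral commitment. The libraries were chosen by their labels, 3 of axillary buds (AB) at stage 4 and 3 of the shoot apical meristem (SAM) at stage 3, which is 6 of the 23 libraries of the series. The series sampled both organs of the perennial Pajares accession at 4 stages, at 4 weeks (stage 1) and 8 weeks (stage 2) of growth in the warm and after 4 weeks (stage 3) and 7 weeks (stage 4) of cold. Plants grew at 24 °C by day and 18 °C by night, and the cold was given with 16 h of light and 8 h of darkness. Each library is a biological replicate made from 120 to 150 pooled organs, and bud and meristem were each taken with 1 leaf primordium. All groups are the same accession, and no mutant or transgene is labelled. Organ and weeks of cold differ together between the late cold bud and the mid cold apex, so their effects cannot be told apart in that comparison. The apex after 7 weeks of cold (late cold apex, SAM stage 4, 3 libraries) differs from the late cold bud in organ alone and is used as the second reference.

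Arabis alpina flowers only after prolonged cold, and it is perennial because part of its axillary buds stay vegetative when the main apex turns to flowering. In Brassicaceae, cold shuts down the MADS-box repressor FLC, known as PEP1 in this species, and its relatives (the MAF genes), which frees integrators such as SOC1 and FUL. These in turn lead to the floral meristem identity genes LFY and AP1, and later to organ identity genes such as PI and AP3.

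The 6 libraries held 15.3 to 15.7 M counted reads in the late cold bud and 12.2 to 18.2 M in the mid cold apex, and the series ranged from 12.2 to 26.2 M. Of 34220 gene models, 21414 passed the filter on low counts and were tested. Gene names are those the deposited descriptions give, so a symbol can belong to a close relative. Replicate 3 of the mid cold apex stood apart: it was the shallowest of the series, at 12.2 M reads, and for several flowering and meristem genes it lay closer to the late cold apex than the other 2 libraries of its group did. Several results that it moves are given with and without it. Among the meristem genes, STM, WUS and CLV3 were detected in both groups. The libraries hold bulk tissue, in which fewer cells of a type and less RNA per cell cannot be told apart.

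As a whole, the late cold bud was closer to the apex than to any earlier bud, and closer to the late cold apex than to the mid cold apex. The root mean square log2 difference over all tested genes averaged 0.473 among the late cold bud libraries themselves. To the libraries of the late cold apex it averaged 0.573 (range 0.494 to 0.643 over 9 pairs), and to those of the mid cold apex 0.652 (0.610 to 0.730 over 9 pairs). The ratio of the mid over the late cold apex distance was 1.12, 1.11 and 1.18 for the 3 bud libraries. All 3 bud libraries were therefore nearer, on average, to the late cold apex, although the ranges of the pairs overlapped. Distances to the apex without cold were larger, 0.856 at 4 weeks and 0.878 at 8 weeks. Those to the bud groups were larger still, 1.00 at stage 3, 1.19 at stage 1 and 1.21 at stage 2. The late cold bud libraries were not alike here, since replicate 1 was nearer to every earlier bud library than replicates 2 and 3 were. From stage 3 buds replicate 1 lay at 0.821 to 0.955, against 0.936 to 1.13 for replicates 2 and 3.

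Fewer genes differed from the late than from the mid cold apex in the fit to all 23 libraries. Between the late cold bud and the mid cold apex, 2457 of 21414 genes differed at an edgeR adjusted p under 0.05 (11.5% of those tested). Of these, 1115 were higher in the bud (5.21%) and 1342 lower (6.27%), and 653 differed by at least 2-fold. The 3 libraries of each group did not overlap for 6722 genes (31.4%). On deposited TPM values with limma the split turned, with 1388 higher and 956 lower. It also turned in edgeR without the filter on low counts, with 1128 higher and 1026 lower. Against the late cold apex, 743 genes differed (3.47%), 290 higher and 453 lower in the bud. The comparisons share the bud libraries. Against the apex without cold the counts were 6519 (30.4%) at 4 weeks and 7239 (33.8%) at 8 weeks. Against earlier buds they were 8771 at stage 1 (41%), 10945 at stage 2 (51.1%) and 10121 at stage 3 (47.3%). Against the mid cold apex, 1503 were called without bud replicate 2 and 1593 without bud replicate 3. Against the late cold apex, 377 were called without bud replicate 1, 373 without bud replicate 2, 437 without apex replicate 2 and 383 without apex replicate 3. When each comparison was fitted to its own 6 libraries only, 2494 genes differed from the mid and 1465 from the late cold apex, and with a replicate block added 2326 and 2317, so the order of the counts depends on the fit.

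**Figure D1:**
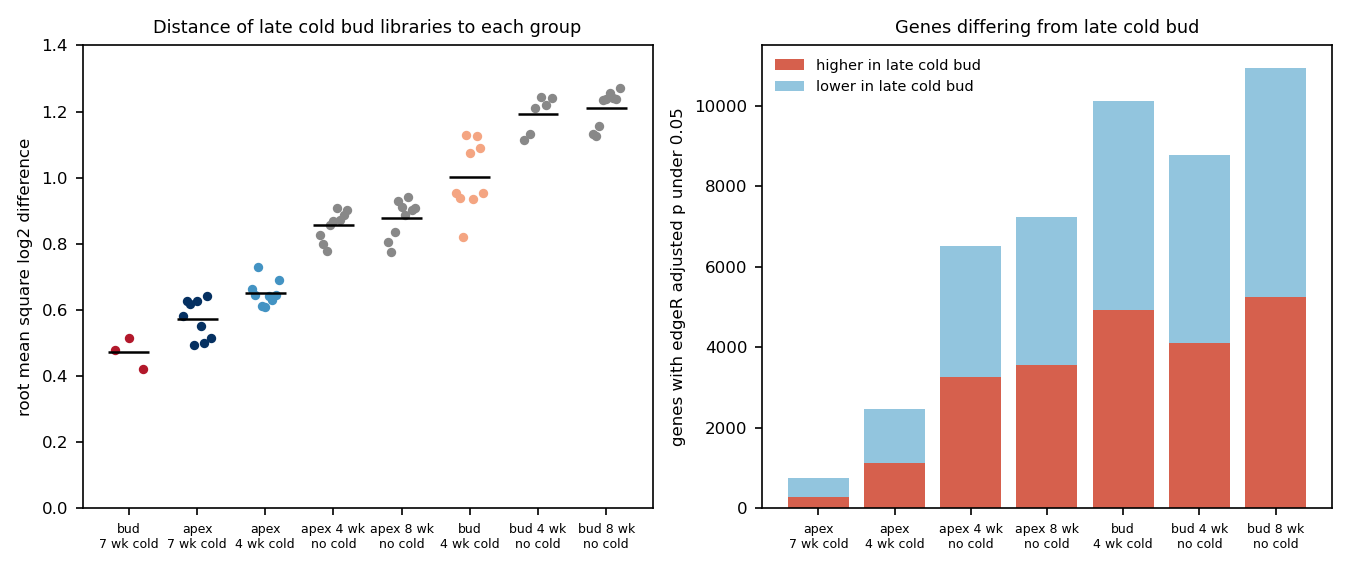
The left panel plots the root mean square log2 difference between each late cold bud library and each library of the group named on the x axis (points are pairs of libraries, lines are means). The right panel gives the number of genes with an edgeR adjusted p under 0.05 between the late cold bud and each group, with 743 for the late cold apex and 2457 for the mid cold apex.

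Floral meristem identity genes were above the mid cold apex in the late cold bud and below the late cold apex. LFY (Aa_G61540, chromosome 8, 46457059 to 46459751 on the version 5 assembly), the transcription factor that commits a meristem to flower formation, stood at 29.4, 41.5 and 40 CPM (counts scaled to a common library size) in the 3 bud libraries. It stood at 24.2, 14.6 and 20.7 CPM in the mid cold apex and at 112, 133 and 166 CPM in the late cold apex. The 3 groups did not overlap, and the bud lay between the 2 apex groups. The log2 difference was 0.89 ± 0.17 (SE, n = 3 and 3) from the mid cold apex (edgeR adjusted p = 0.00134) and −1.89 ± 0.16 from the late cold apex (adjusted p = 1.84e-06). The first call kept its side when any 1 library was left out (adjusted p up to 0.0106) but not in fits to the 6 libraries alone (0.0505, and 0.173 with a replicate block). Buds after 4 weeks of cold had 2.11 ± 0.256 CPM of LFY (SD, n = 3).

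SEP4 (Aa_G675730, described as AGL3), a MADS-box cofactor of floral organ identity, gave 3.20, 2.52 and 4.71 CPM in the late cold bud. The mid cold apex gave 0.278, 0.20 and 0.579 CPM and the late cold apex 14.2, 15.7 and 28.8 CPM. Again the bud lay between groups that did not overlap. The log2 difference was 3.34 ± 0.47 from the mid cold apex (edgeR adjusted p = 0.000844) and −2.48 ± 0.34 from the late cold apex (adjusted p = 0.00206). AP1 (Aa_G283230, chromosome 2, 23713656 to 23717789), the partner of LFY in floral meristem identity, had no read in any library of the mid cold apex. It was at 2.20, 1.06 and 1.97 CPM in the late cold bud and at 20.3, 29.9 and 51.3 CPM in the late cold apex. With 3 counts over the 3 apex libraries as the floor, AP1 was at least 26.4-fold higher in the bud than in the mid cold apex (edgeR adjusted p = 0.0099). DESeq2 did not call it (adjusted p = 0.347). All 3 bud libraries were below every late cold apex library for AP1 (adjusted p = 0.00352 in edgeR, 0.723 in DESeq2).

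The organ identity genes were less even among the bud libraries. PI (Aa_G68100), a B-class MADS-box gene of petals and stamens, was named after its values were seen, as a further called member of the floral list. It gave 4.20, 5.84 and 9.30 CPM in the bud and 0.889, 0.865 and 2.23 CPM in the mid cold apex, groups that did not overlap. Its log2 difference was 2.32 ± 0.56 (edgeR adjusted p = 0.0117), and the call was lost when bud replicate 3 or apex replicate 1 or 2 was left out (adjusted p 0.0543 to 0.0613). AP3 (Aa_G300500), its B-class partner, was at 2.32, 0 and 0.0637 CPM in the bud and at 0 in the mid cold apex, so 1 bud library held nearly all of its reads. It did not pass (adjusted p = 0.349). AP2 (Aa_G575880), an A-class gene that is also a floral repressor in Arabidopsis, was lower in the bud by a small margin, −0.35 ± 0.11 (adjusted p = 0.0467). That AP2 call was lost in 9 of 14 alternatives.

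Over the list of floral meristem and organ identity genes, 10 of 11 members were tested. Against the mid cold apex 4 were higher in the bud and 1 lower, beside 5.21% and 6.27% of all tested genes. Against the late cold apex none was higher and 3 were lower, beside 1.35% and 2.12%. The median log2 difference from the mid cold apex was 2.13 as fitted, and 1.41 with the 3 members that had no read in 1 group set to their bound, beside 0.00102 over all tested genes. With limma on log2(TPM + 1), which shrinks differences of low genes, it was 0.55. Without replicate 3 of the mid cold apex the counts were the same, 4 higher and 1 lower.

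**Figure D2:**
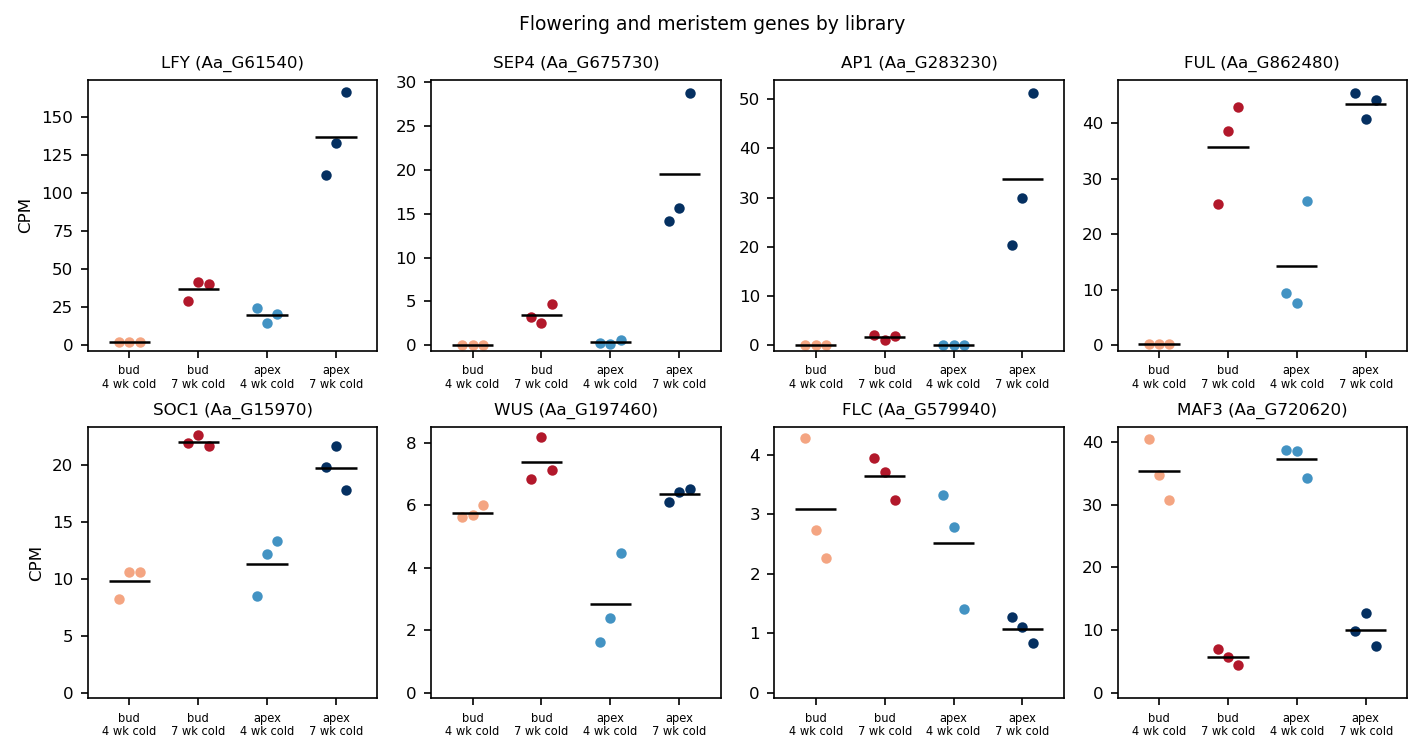
Each panel plots 1 gene in CPM (points are libraries, lines are group means) for buds and apices after 4 and 7 weeks of cold. LFY, SEP4 and AP1 in the late cold bud lie between the mid and the late cold apex, SOC1, FUL and WUS lie near the late cold apex, and FLC lies above it.

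Of the integrators upstream of these genes, SOC1 and FUL were higher in the late cold bud than in the mid cold apex and did not pass the test against the late cold apex. SOC1 (Aa_G15970, chromosome 4, 51263979 to 51266537), a MADS-box integrator of the cold, age and gibberellin inputs, stood at 21.9, 22.6 and 21.7 CPM in the late cold bud. The mid cold apex had 8.5, 12.2 and 13.3 CPM and the late cold apex 19.8, 21.6 and 17.8 CPM. Every bud library was above every mid cold apex library, with a log2 difference of 0.97 ± 0.18 (edgeR adjusted p = 0.00105). The difference of 0.16 ± 0.17 from the late cold apex did not pass (adjusted p = 0.71).

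FUL (Aa_G862480, described as AGL8), a MADS-box gene that acts beside SOC1, gave 25.4, 38.6 and 42.9 CPM in the bud and 9.51, 7.58 and 25.9 CPM in the mid cold apex. The third apex library overlapped the bud range. The log2 difference was 1.34 ± 0.36 (edgeR adjusted p = 0.0357), and 2.06 ± 0.21 without that library (adjusted p = 1.54e-05). The call was lost without bud replicate 2 or 3 or apex replicate 1 or 2 (adjusted p 0.086 to 0.116) and in the fit to 6 libraries (0.223). This gene model is short, with 213 coding bases. SPL4 (Aa_G381970), a target of the age pathway that promotes flowering in Arabidopsis, showed the same split library. It was at 26, 40.6 and 52 CPM in the bud and at 17.3, 8.65 and 51.1 CPM in the mid cold apex. The difference of 0.64 ± 0.44 did not pass (adjusted p = 0.39), while without apex replicate 3 it was 1.61 ± 0.31 (adjusted p = 0.00397). AGL42 (Aa_G131050), a relative of SOC1, did not pass (21.6 ± 2.97 against 16.8 ± 2.90 CPM, SD, adjusted p = 0.187). Of the 6 integrators tested, 2 were higher in the bud and none lower, beside 5.21% and 6.27% of all tested genes, with a median log2 difference of 1.15. Without apex replicate 3 the count was 3 and the median 1.84, and without bud replicate 2 or 3 or apex replicate 1 or 2 the count was 1.

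Floral repressors that passed against the mid cold apex were all lower in the late cold bud, 5 of 20 tested, beside 6.27% of all tested genes. The 3 genes described as MAF3, MADS-box relatives of FLC, were all lower in the late cold bud than in the mid cold apex. The first (Aa_G720620, chromosome 8, 48261624 to 48265703) gave 7.02, 5.64 and 4.46 CPM in the bud, 38.7, 38.6 and 34.3 CPM in the mid cold apex and 9.81, 12.6 and 7.39 CPM in the late cold apex. The bud was the lowest of the 3 groups, and none overlapped. The log2 difference was −2.70 ± 0.16 from the mid cold apex (edgeR adjusted p = 5.44e-10) and −0.80 ± 0.16 from the late cold apex (adjusted p = 0.00636). The latter was lost without late cold apex replicate 2 and in the fit to 6 libraries (adjusted p up to 0.056).

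The second MAF3 gene (Aa_G585310, chromosome 8, 48290033 to 48293812) was at 3.39, 0.863 and 0.318 CPM in the bud and at 17.4, 22.2 and 7.86 CPM in the mid cold apex. Both groups were uneven, without overlap. Its log2 difference was −3.37 ± 0.51 (edgeR adjusted p = 0.000442), which was lost in fits to the 6 libraries alone (0.0824, and 0.0577 with a replicate block). The late cold apex had 0.927, 1.70 and 0.221 CPM and overlapped the bud. That difference, 0.69 ± 0.70, did not pass (adjusted p = 0.689). The third (Aa_G476870) stood at 4.67 ± 0.245 against 9.30 ± 0.798 CPM, a difference of −1.0 ± 0.17 (adjusted p = 0.000386). Its level in the late cold apex was 5.70 ± 0.897 CPM, and that difference, −0.28 ± 0.17, did not pass (adjusted p = 0.426).

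FLC itself (Aa_G579940, chromosome 8, 6184468 to 6185945) did not follow the MAF3 genes. It was at 3.95, 3.72 and 3.25 CPM in the late cold bud, 3.34, 2.79 and 1.41 CPM in the mid cold apex and 1.27, 1.10 and 0.827 CPM in the late cold apex. The bud overlapped the mid cold apex and lay above every late cold apex library. Its difference from the mid cold apex, 0.50 ± 0.24, did not pass (edgeR adjusted p = 0.204), and that from the late cold apex, 1.74 ± 0.26, did (adjusted p = 0.000484). In the apex without cold, FLC was at 13.2 ± 0.579 CPM at 4 weeks and 16.4 ± 1.11 CPM at 8 weeks. The FLC model has only 180 coding bases, and 170 reads over the 3 bud libraries stand behind its level.

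Other repressors varied. SVP (Aa_G311490), the MADS-box partner of FLC, was at 206 ± 4.31 CPM in the bud, 216 ± 13.8 in the mid and 155 ± 10.2 in the late cold apex. It did not pass against the mid cold apex (edgeR adjusted p = 0.692), while against the late cold apex it was higher by 0.41 ± 0.09 (adjusted p = 0.0133), a call lost without bud replicate 1 or late cold apex replicate 2 or 3 (adjusted p up to 0.0846). Of the 3 genes with the description of TOE1 (RAP2-7, an AP2-type repressor targeted by miR172 in Arabidopsis), Aa_G158280 was lower in the bud than in the mid cold apex by 0.63 on the log2 scale (−0.63 ± 0.13, adjusted p = 0.00252) and at 0.34 ± 0.13 from the late cold apex (adjusted p = 0.164). The other two, Aa_G234670 and Aa_G207710, did not pass there (adjusted p = 0.508 and 0.201). Both were higher in the bud than in the late cold apex, by 0.66 ± 0.16 (adjusted p = 0.0304) and 0.82 ± 0.14 (adjusted p = 0.00117); the call for Aa_G234670 was lost in 5 alternatives. A FRIGIDA-like gene (Aa_G102090), named after its values were seen, was lower than the mid cold apex by a small margin, −0.20 ± 0.06 (adjusted p = 0.045), and lost its call in 12 of 14 alternatives. In all, none of the 20 repressors tested was higher in the bud than in the mid cold apex and 5 were lower. The median was −0.18, and 4 to 6 were lower with 1 of the 6 libraries left out. Against the late cold apex 4 were higher and 1 lower, beside 1.35% and 2.12% of all tested genes.

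To place each gene between the 2 apex stages, the bud was tested against the midpoint of the mid and late cold apex on the log2 scale. Over all genes 1458 differed from that midpoint (6.81%), 639 higher (2.98%) and 819 lower (3.82%), and 833, 692 and 870 without bud replicate 1, 2 or 3. SOC1 (Aa_G15970) lay 0.56 ± 0.15 above it (edgeR adjusted p = 0.0232), on the late side. LFY (Aa_G61540) lay at −0.50 ± 0.14 from it (adjusted p = 0.0396), on the mid side, though the call was lost in 9 of 14 alternatives. FLC (Aa_G579940) lay 1.12 ± 0.21 above (adjusted p = 0.00228), above both apex means, and the first MAF3 gene (Aa_G720620) lay at −1.75 ± 0.14 (adjusted p = 2.82e-07), below both apex means. The SOC1 call was lost without any 1 bud library, without mid cold apex replicate 1 and without late cold apex replicate 3 (adjusted p up to 0.101). The flowering genes thus gave no single position of the bud between the 2 apex stages. AP1 has no midpoint of use, since it had no read in the mid cold apex.

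Among 15 vernalization and Polycomb genes tested, 2 were higher and 1 lower in the late cold bud (20% called, beside 11.5% of all tested genes). A VIN3-like gene (Aa_G183140, a relative of the cold-induced PHD protein that starts silencing) was at 45.9 ± 3.11 against 42.1 ± 0.831 CPM and did not pass (edgeR adjusted p = 0.281). VRN1 (Aa_G513220), a DNA-binding protein that maintains silencing, was at 64.7 ± 2.27 against 58.4 ± 2.70 CPM (adjusted p = 0.188), and its relative Aa_G108140 did not pass either (adjusted p = 0.335). A second VIN3-like gene (Aa_G307430), described as vernalization5, was higher in the bud at 7.97, 14.1 and 9.75 against 2.67, 3.86 and 6.45 CPM, a log2 difference of 1.31 ± 0.28 (adjusted p = 0.00388; 0.0501 in the fit to 6 libraries). CLF (Aa_G253080), a Polycomb methyltransferase, was higher by 0.22 ± 0.06 (adjusted p = 0.0207), a call lost without bud replicate 1 or 3 or apex replicate 1. EMF1 (Aa_G539360), a Polycomb-associated repressor of flowering, was lower, at 35.4 ± 3.94 against 46.6 ± 2.64 CPM (−0.40 ± 0.11, adjusted p = 0.0213), a call lost in 5 of 14 alternatives. A second EMF1 gene (Aa_G116870) did not pass (adjusted p = 0.481). The list had a median of 0.12.

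Among stem cell genes, WUS (Aa_G197460, chromosome 3, 28212754 to 28214487), the homeobox gene of the organizing centre, was higher in the late cold bud. It stood at 6.84, 8.17 and 7.13 CPM against 1.61, 2.39 and 4.47 CPM in the mid cold apex, and at 6.10, 6.43 and 6.51 CPM in the late cold apex. The bud libraries were above all mid cold apex libraries, with a log2 difference of 1.42 ± 0.32 (edgeR adjusted p = 0.00636), and the difference of 0.22 ± 0.30 from the late cold apex did not pass (adjusted p = 0.785). CLV3 (Aa_G155810), the secreted peptide that limits WUS, was near the detection limit with 28 and 14 reads in the 2 groups and did not pass (adjusted p = 0.28).

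The 3 receptor kinases with the description of CLV1, the receptor of the CLV3 peptide, were lower in the bud. Aa_G590900 stood at 31.2, 29.6 and 31.8 CPM against 62.9, 51.8 and 57.3 CPM in the mid and 52.5, 59.4 and 59.7 CPM in the late cold apex. Every bud library was below every apex library of both stages, by −0.90 ± 0.09 (edgeR adjusted p = 1.53e-06) and −0.89 ± 0.09 (adjusted p = 7.83e-06). Aa_G201460 was lower than both as well (−0.81 ± 0.16, adjusted p = 0.00215, and −1.04 ± 0.16, adjusted p = 0.000663). Aa_G702580 was lower than the mid cold apex (−0.50 ± 0.11, adjusted p = 0.00585) and at 78 ± 7.13 against 77.5 ± 11 CPM in the late cold apex.

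ATH1 (Aa_G58550), a homeobox gene of the shoot apex that promotes FLC in Arabidopsis, was at 52.4 ± 6.07 against 72.6 ± 12.5 CPM (−0.47 ± 0.12, edgeR adjusted p = 0.0109). Its call was lost without bud replicate 2 or apex replicate 1 or 2 and in both fits to 6 libraries. STM (Aa_G408930), which keeps meristem cells undifferentiated, was at 178 ± 8.54 against 164 ± 37.8 CPM and did not pass (adjusted p = 0.555). Without the split apex library STM was 0.33 ± 0.10 higher (adjusted p = 0.0354). Of 14 meristem genes, 1 was higher and 4 were lower, beside 5.21% and 6.27% of all tested genes. Without that library 3 were higher and 4 lower, and the medians were 0.08 with it and 0.20 without it.

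Axillary meristem genes gave no common direction. LAS (Aa_G193190), a GRAS gene needed to start axillary meristems, did not pass (3.51 ± 0.252 against 2.90 ± 0.618 CPM, edgeR adjusted p = 0.463), and neither did the boundary gene CUC2 (Aa_G141220, adjusted p = 0.636). RAX1 (Aa_G583140), a MYB gene of axillary meristem formation, was at 12.5, 18.3 and 19.7 against 7.50, 6.79 and 13.7 CPM. It missed the threshold (0.87 ± 0.28, adjusted p = 0.0517) and passed it without apex replicate 3 (1.24 ± 0.28, adjusted p = 0.00846). LOB (Aa_G320940), a boundary gene, was at 4.50 ± 1.21 against 2.55 ± 0.440 CPM (adjusted p = 0.0671), while buds after 4 weeks of cold had 52.7 ± 10.9 CPM. RAX2 (Aa_G159790) was higher in the late cold bud by 2.13 ± 0.41 (adjusted p = 0.00165) at low level (1.70 against 0.397 CPM). A RAX3-like gene (Aa_G225320) was lower by 1.76 on the log2 scale (−1.76 ± 0.36, adjusted p = 0.00265). The 2 genes described as MYB117 (LOF1, a boundary regulator) went opposite ways. Aa_G347600 was higher by 1.93 ± 0.37 (adjusted p = 0.002), and Aa_G254960 was at −0.44 ± 0.13 (adjusted p = 0.0281), a call lost in 5 alternatives. Of 10 boundary genes, 2 were higher and 3 lower, beside 5.21% and 6.27% of all tested genes. With 1 of the 6 libraries left out, 2 to 3 were higher and 1 to 3 lower.

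**Figure D3:**
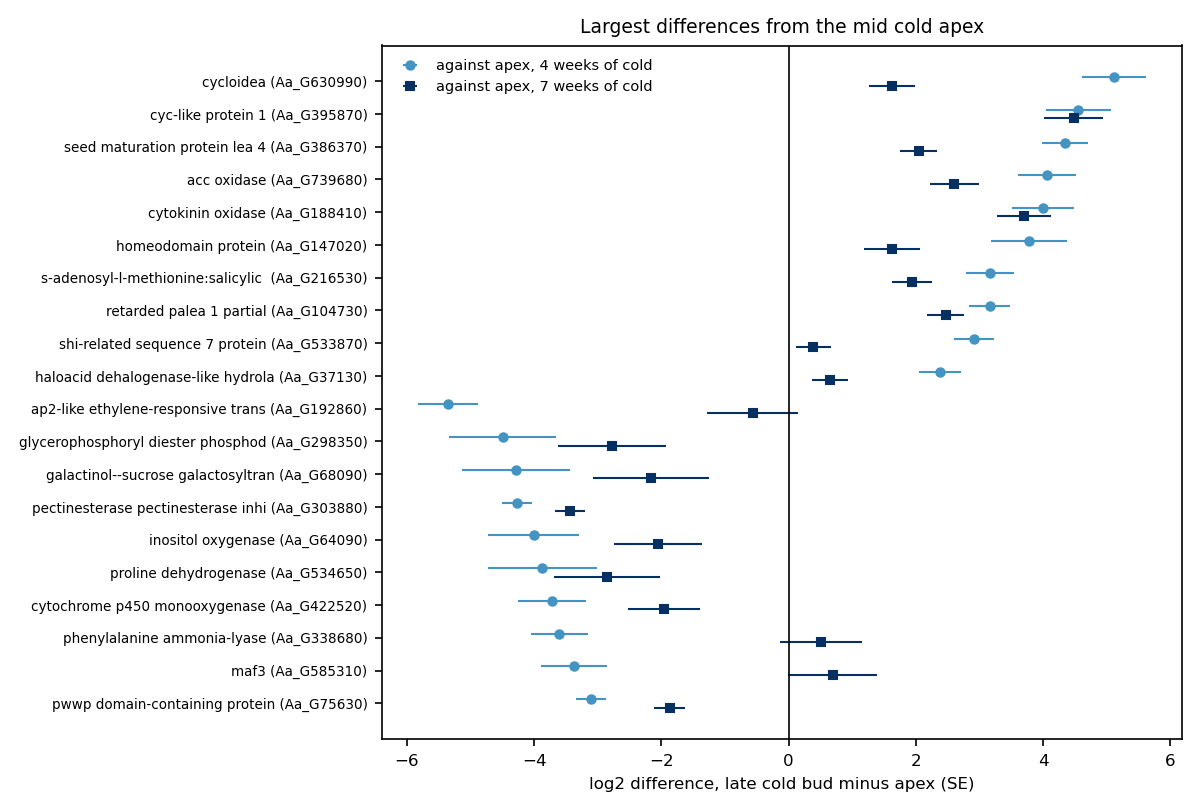
Log2 differences with their SE for the 10 genes highest and 10 lowest in the late cold bud against the mid cold apex (circles), with the same genes against the late cold apex (squares). The genes described as cyc-like protein 1 and cytokinin oxidase differ alike from both apex stages, whereas the gene described as an AP2-like BBM factor is near 0 against the late cold apex.

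The largest excesses of the late cold bud were mostly genes with still higher levels in buds at stage 3. The 10 were taken among 658 genes that passed, did not overlap between groups, had a description and 1 locus, and reached 5 CPM. A gene described as cyc-like protein 1 (Aa_G395870, chromosome 2, 23033049 to 23034155), of the TCP family to which the branching repressor BRC1 belongs, gave 14.3, 8.37 and 5.92 CPM in the late cold bud. It gave 0.278, 0.532 and 0.414 CPM in the mid cold apex, without overlap, and 92.4 ± 3.23 and 74.7 ± 7.44 CPM in buds at stages 2 and 3. The late cold bud thus stood between the earlier buds and the apex. The log2 difference was 4.55 ± 0.51 from the mid cold apex (edgeR adjusted p = 2.14e-05) and 4.48 ± 0.47 from the late cold apex (adjusted p = 4.93e-05). A second TCP gene, described as cycloidea (Aa_G630990), behaved otherwise, since its 8.07 ± 0.851 CPM was the highest mean of the 8 groups. It was 5.11 ± 0.50 above the mid cold apex (adjusted p = 4.89e-06), where only 10 reads were counted, and 1.63 ± 0.36 above the late cold apex (adjusted p = 0.0171), a call lost without bud replicate 2 or late cold apex replicate 1 or 2 (adjusted p up to 0.0777).

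Hormone enzymes followed. A cytokinin oxidase (Aa_G188410), which breaks down cytokinin, gave 8.84, 5.64 and 4.08 CPM in the late cold bud against 0.222, 0.20 and 0.827 CPM in the mid cold apex, a log2 difference of 4.00 ± 0.48 (edgeR adjusted p = 3.57e-05). Its level in buds at stage 3 was 42.8 ± 12.2 CPM. An ACC oxidase (Aa_G739680), the last step of ethylene synthesis, gave 83.2, 51.3 and 34.7 against 3.11, 3.39 and 3.64 CPM, or 4.07 ± 0.45 (adjusted p = 2.89e-05), and 334 ± 32.3 CPM in buds at stage 3. For both genes, and for cyc-like protein 1, bud replicate 1 was the highest of the 3 bud libraries and replicate 3 the lowest. A LEA protein gene (Aa_G386370), of a class that protects drying cells, gave 86.9, 79.1 and 50.3 against 1.61, 4.72 and 4.72 CPM (4.34 ± 0.36, adjusted p = 1.32e-06; 0.0734 with a replicate block on 6 libraries). The other five were a homeodomain protein (Aa_G147020, 3.78 ± 0.60), a salicylic acid methyltransferase-like gene (Aa_G216530, 3.16 ± 0.38), a retarded palea 1 gene (Aa_G104730, 3.16 ± 0.32), an SHI-related gene (Aa_G533870, 2.91 ± 0.32, edgeR adjusted p 0.0649 with a replicate block on 6 libraries) and a haloacid dehalogenase-like hydrolase (Aa_G37130, 2.38 ± 0.34). Of these, the SHI-related gene, whose Arabidopsis family promotes auxin synthesis, was at 65.5 ± 10.8 CPM in the bud and 50 ± 5.74 CPM in the late cold apex and did not differ there beyond the threshold (adjusted p = 0.534).

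The lowest genes were led by a gene described as the AP2-like factor BBM (Aa_G192860, chromosome 8, 13957170 to 13960372), of the family that keeps tissue in an embryonic or stem cell state. It gave 0.690, 0.266 and 0.0637 CPM in the late cold bud, 15.3, 19.3 and 7.94 CPM in the mid cold apex and 0.695, 0.439 and 0.331 CPM in the late cold apex. The bud and the late cold apex overlapped at low level, and the mid cold apex was above both. Its log2 difference was −5.35 ± 0.47 (edgeR adjusted p = 1.15e-06). Phenylalanine ammonia-lyase (Aa_G338680), the entry step of phenylpropanoid synthesis, had the same pattern, at 1.61 ± 1.05, 19.6 ± 11.8 and 1.2 ± 0.570 CPM (−3.60 ± 0.44 from the mid cold apex, adjusted p = 6.68e-05; 0.0649 with a replicate block on 6 libraries). Before cold the apex had 187 ± 13.5 CPM of it at 4 weeks and the bud 5.08 ± 0.211 CPM. Buds at stage 3 had 3.16 ± 0.357 CPM.

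Another gene was low in buds at every stage. Pectinesterase 47 (Aa_G303880), a cell wall enzyme, gave 1.44, 2.39 and 0.892 CPM in the late cold bud against 31.5, 26.3 and 33.2 CPM in the mid and 18.0, 18.5 and 14.5 CPM in the late cold apex. No bud library reached any apex library, with differences of −4.27 ± 0.23 (edgeR adjusted p = 3.42e-10) and −3.43 ± 0.23 (adjusted p = 4.61e-08). Its means in the other bud groups were 2.66 to 3.63 CPM. Metabolic genes made up much of the rest. Inositol oxygenase (Aa_G64090) was at 10.3, 10.9 and 4.52 against 162, 147 and 104 CPM (−4.01 ± 0.71, adjusted p = 0.00172). Proline dehydrogenase (Aa_G534650), which breaks down proline, was at 16.0, 8.04 and 2.93 against 133, 156 and 106 CPM (−3.87 ± 0.85, adjusted p = 0.00791; 0.0863 with a replicate block on 6 libraries). A galactinol-sucrose galactosyltransferase (Aa_G68090), of raffinose synthesis, was at −4.28 ± 0.85 (adjusted p = 0.00382), and a glycerophosphoryl diester phosphodiesterase (Aa_G298350) at −4.49 ± 0.84 (adjusted p = 0.00226). These 4 genes did not pass against the late cold apex (adjusted p 0.0797 to 0.242). Yet for each of them every bud library was below every late cold apex library, with log2 differences of −2.05 to −2.86. A cytochrome P450 (Aa_G422520, −3.72 ± 0.53) and a PWWP domain gene (Aa_G75630, −3.11 ± 0.23) completed the 10, beside the second MAF3 gene.

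**Figure D4:**
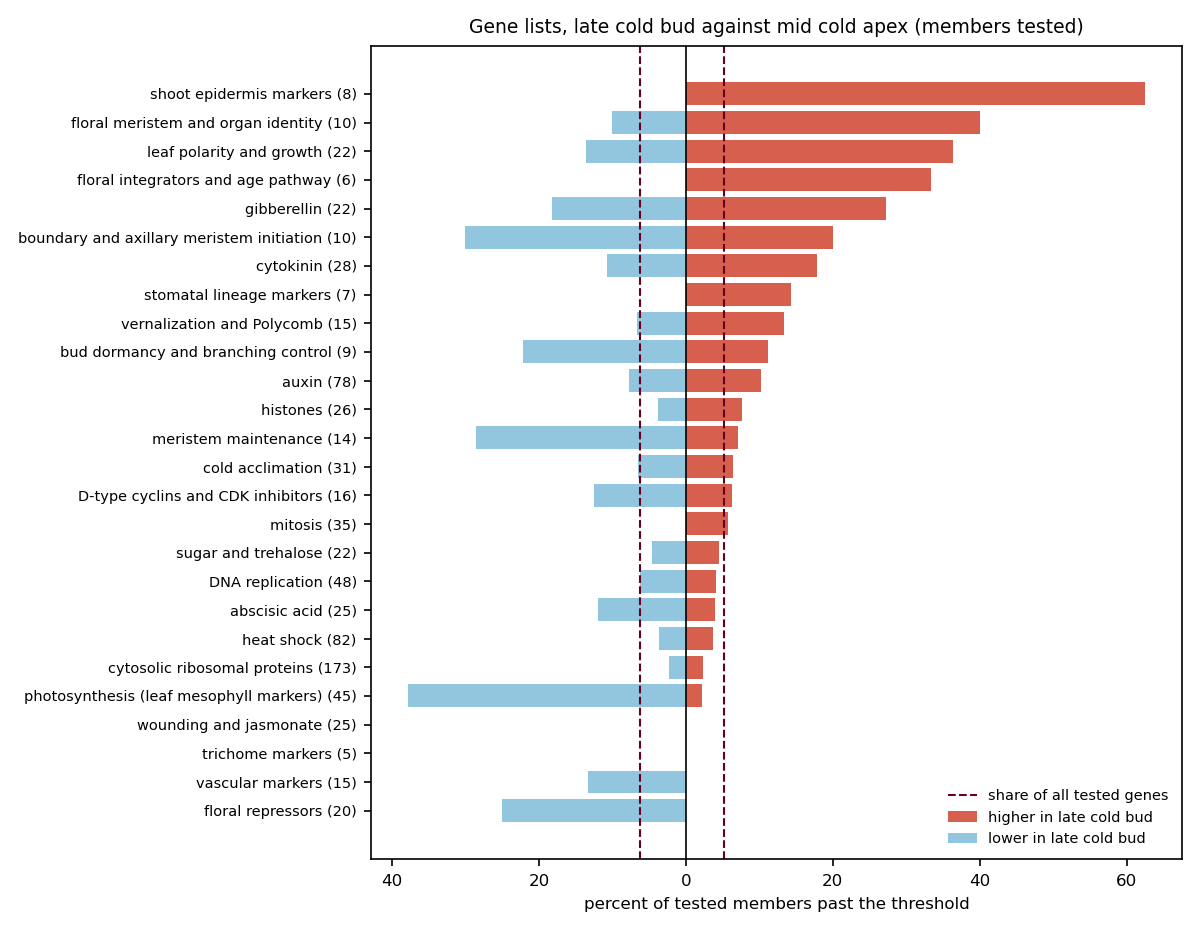
Share of tested members of each gene list higher (right) or lower (left) in the late cold bud than in the mid cold apex at an edgeR adjusted p under 0.05. Dashed lines mark the shares over all tested genes, 5.21% higher and 6.27% lower, and the number tested stands in parentheses.

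Photosynthesis genes, used as leaf mesophyll markers, were lower in the late cold bud. Of 45 tested, 17 were lower and 1 higher, with a median log2 difference of −0.40, beside 6.27% and 5.21% of all genes. Examples were a photosystem I subunit VI gene (Aa_G568100, 27.2 ± 1.37 against 60.1 ± 3.62 CPM, −1.14 ± 0.11, edgeR adjusted p = 1.17e-06) and the antenna protein CP29 (Aa_G53980, −0.82 ± 0.09, adjusted p = 3.5e-06). The exception was photosystem II G protein (Aa_G212180), 1.23 ± 0.19 higher (adjusted p = 0.000199). The summed level of the list was 7994 to 8777 CPM in the bud libraries, 9725 to 13359.7 CPM in the mid and 9533 to 12289 CPM in the late cold apex. Without replicate 3 of the mid cold apex 12 were lower. Against the late cold apex 4 were lower and 1 higher, beside 2.12% and 1.35% of all tested genes.

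Shoot epidermis markers were higher, 5 of 8 tested beside 5.21% of all genes, with a median of 0.57 and none lower beside 6.27%. They were a 3-ketoacyl-CoA synthase gene of wax synthesis (Aa_G290640, 45.1 ± 1.82 against 22.4 ± 1.56 CPM, 1.01 ± 0.12, edgeR adjusted p = 1.32e-05), 2 ATML1-type homeobox genes (Aa_G257080 and Aa_G298510, 0.68 ± 0.11 and 0.61 ± 0.13), FIDDLEHEAD (Aa_G734340, 0.52 ± 0.10) and a protodermal factor (Aa_G199990, 0.68 ± 0.15). The call count was 5 with any 1 of the 6 libraries left out, but the call for Aa_G298510 was lost in both fits to the 6 libraries (adjusted p = 0.0511, and 0.108 with a replicate block). The list summed to 2943 to 3180 CPM in the bud, 1612 to 2152 CPM in the mid and 2441 to 2630 CPM in the late cold apex. Against the late cold apex 1 member was higher in the bud, beside 1.35% of all tested genes. Of other tissues, vascular markers had 0 higher and 2 lower of 15, both SUC2 sucrose transporters (Aa_G3310 and Aa_G344060, −0.61 ± 0.19 and −1.26 ± 0.40, lost in 9 and 8 of 14 alternatives) and stomatal lineage markers 1 higher of 7. The 5 trichome markers tested, of low level apart from 1, had a median of 1.04 and edgeR adjusted p from 0.101 (Aa_G45330, TTG1) to 0.369 (Aa_G67910, a CAPRICE-like MYB gene), and both were named after their values were seen. The vascular sum was 393 to 405 CPM in the bud and 388 to 410 CPM in the mid cold apex. The part of tissue composition in the other results was not tested.

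Leaf polarity and growth genes had 8 of 22 higher and 3 lower, beside 5.21% and 6.27% of all tested genes, with a median of 0.25. With 1 of the 6 libraries left out, 4 to 6 were higher. The 2 GRF2 growth factors (Aa_G95200 and Aa_G95210, 0.40 ± 0.05 and 0.42 ± 0.09) and TCP24 (Aa_G538600, 1.12 ± 0.23), which limits leaf margin growth, were higher. ATHB-15 (Aa_G219750), an HD-ZIP III gene of adaxial and vascular identity, was lower (−0.58 ± 0.08, edgeR adjusted p = 4.94e-05).

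Gibberellin genes were called in both directions, 6 higher and 4 lower of 22, beside 5.21% and 6.27% of all tested genes. Counts were 3 higher and 3 lower without replicate 3 of the mid cold apex, and 3 higher and 2 lower without its replicate 2 or bud replicate 2 or 3. The higher ones included a gibberellin 2-oxidase (Aa_G655020, 40.2 ± 5.07 against 18.4 ± 5.38 CPM, 1.14 ± 0.24, edgeR adjusted p = 0.00514; 0.0915 with a replicate block on 6 libraries), which inactivates the hormone, and a gibberellin 20-oxidase (Aa_G598100, 1.81 ± 0.41, adjusted p = 0.00627; 0.0964 in the fit to 6 libraries), which makes it. A second 2-oxidase (Aa_G418770) was lower than the mid and higher than the late cold apex (−1.26 ± 0.31, adjusted p = 0.0131, and 1.60 ± 0.38, adjusted p = 0.0227), and both calls were lost when single libraries were left out. The receptor GID1C (Aa_G4890, −0.65 ± 0.11) and the DELLA gene RGA1 (Aa_G736670, −0.49 ± 0.10) were lower.

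Cytokinin genes had 5 higher and 3 lower of 28, beside 5.21% and 6.27% of all tested genes. Their median was 0.18 as fitted and 0.13 with the 3 members at 0 in 1 group set to their bound. A LOG-type cytokinin riboside monophosphate hydrolase (Aa_G414840), the activating step, was at 12, 15.1 and 15.3 against 3.34, 4.12 and 4.47 CPM (1.84 ± 0.16, edgeR adjusted p = 3.99e-07). A further cytokinin oxidase (Aa_G273140, −1.10 ± 0.15) and cytokinin dehydrogenase 7 (Aa_G9070, −0.67 ± 0.11) were lower, unlike Aa_G188410, so the breakdown enzymes did not share a direction. Auxin genes had 8 higher and 6 lower of 78 (17.9% called, beside 11.5% of all tested genes). With 1 of the 6 libraries left out, 5 to 10 were higher and 2 to 5 lower. MONOPTEROS (Aa_G329270, ARF5), the auxin response factor of primordium and flower initiation, was at 571, 673 and 747 against 369, 343 and 409 CPM. Its groups did not overlap, and it was higher by 0.83 ± 0.11 (adjusted p = 2.53e-05) and not past the threshold from the late cold apex (−0.06 ± 0.11, adjusted p = 0.85). A gene for IAA33 (Aa_G607630), a non-canonical auxin protein, was lower than both apex stages (−3.29 ± 0.48, adjusted p = 0.000106, and −3.12 ± 0.47, adjusted p = 0.000585). Abscisic acid genes had 1 higher and 3 lower of 25 (16% called, beside 11.5% of all tested genes). The lower ones were led by an ABA 8'-hydroxylase (Aa_G357050), the main breakdown enzyme, at 3.70, 2.59 and 2.80 against 21.5, 22.2 and 19.4 CPM (−2.79 ± 0.34, adjusted p = 3.89e-05).

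Dormancy genes had 1 higher of 9, cyc-like protein 1, and 2 lower, beside 5.21% and 6.27% of all tested genes. The lower ones were a dormancy and auxin associated gene (Aa_G229990), a marker of resting buds, at 9.66, 9.89 and 7.96 against 37.4, 40.9 and 22.2 CPM (−1.87 ± 0.35, edgeR adjusted p = 0.00213), and the senescence gene DIN1 (Aa_G376370, −1.78 ± 0.39, adjusted p = 0.00671). In the late cold apex they did not pass (10.4 ± 1.51 and 8.02 ± 0.937 CPM).

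DNA replication, mitosis, histone, ribosomal protein and heat shock genes were called near or below the background of 11.5%. DNA replication had 5 of 48 called (10.4%), mitosis 2 of 35 (5.71%), histones 3 of 26 (11.5%), cytosolic ribosomal proteins 8 of 173 (4.62%) and heat shock 6 of 82 (7.32%), with medians from −0.09 to 0.04 on the log2 scale. Leaving out 1 library gave 2 to 9 lower heat shock genes, and in the other 4 lists no more calls in either direction than with all libraries. Cold acclimation genes, in organs that differed by 3 weeks of cold, had 2 higher and 2 lower of 31 (12.9%). ERD7 (Aa_G122460) was the strongest at −1.16 ± 0.12 (edgeR adjusted p = 2.35e-06), also lower than the late cold apex (−1.04 ± 0.12, adjusted p = 3.44e-05). D-type cyclins and CDK inhibitors had 1 higher and 2 lower of 16 (18.75% called). Those counts were the same with any 1 of the 6 libraries left out. Of the cell cycle inhibitors, CDK inhibitor 3 (Aa_G138980, −0.63 ± 0.09, adjusted p = 6.56e-05) and 5 (Aa_G178810, −1.34 ± 0.25, adjusted p = 0.00118) were lower and inhibitor 4 (Aa_G257820, 0.41 ± 0.10, adjusted p = 0.00865) higher.

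Because organ and cold time differ together, the calls were set beside the bud against apex comparison in 8-week plants without cold (stage 2), which shares no library with them. There 8014 genes differed (37.4%), 4251 higher and 3763 lower in buds. Of the 1115 genes higher in the late cold bud, 479 were also higher in the stage 2 bud, which is 43.0% of the first list, beside 19.9% of all tested genes, and 11.3% of the second, beside 5.21%. Of the 1342 lower, 573 were also lower at stage 2, 42.7% of the first list, beside 17.6% of all tested genes, and 15.2% of the second, beside 6.27%. Opposite calls made up 8.61% of the higher and 12.7% of the lower genes, beside 17.6% and 19.9% of all tested genes. The genes described as cyc-like protein 1, cytokinin oxidase (Aa_G188410) and pectinesterase 47 were called the same way in both. So were the MAF3 genes Aa_G720620 (−0.59 ± 0.13 at stage 2, edgeR adjusted p = 0.0016) and Aa_G476870 (−0.62 ± 0.15, adjusted p = 0.0027). The MAF3 gene Aa_G585310 was not called at stage 2 (adjusted p = 0.522).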

How the data were processed

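RNA of axillary buds and shoot apices was sequenced as single-end 150-base reads, per the labels. The deposited table, per the file headers, gives each library's total mapped reads as whole-number counts per gene, with TPM values made by the authors beside them; its 46 RPKM and CPM columns were not used. Aligner, counting tool and strand setting are not given in the sources used here. The deposited annotation places version 4 gene models on the version 5 assembly, and its positions and descriptions were joined by gene ID. The members and gene lists were chosen with earlier results of these data known.

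Counts were tested with edgeR 4.0.16 in R 4.3.3. Genes passed filterByExpr (minimum count 10, total 15), library sizes were scaled by TMM, and the robust quasi-likelihood F test was fitted to all 23 libraries with 1 coefficient per group. P-values were Benjamini-Hochberg adjusted over 21414 genes, with 0.05 as threshold. SE is the log2 difference over the square root of F. CPM use TMM-scaled library sizes, and distances use log2 CPM with a prior count of 2. A count floor of 3 over a group replaced 0. Precision follows depth, 12.2 to 26.2 M reads per library. Genes named in the text were those of a fixed panel, the 10 highest and 10 lowest that passed, did not overlap, had a description and 1 locus and reached 5 CPM, and called list members. Alternatives were DESeq2 1.42.0 (size factors, Wald test), no filter, limma 3.58.1 on log2(TPM + 1), a replicate block, single libraries left out, the 6 libraries alone and genes at 1 locus. The edgeR step was tested on simulated data. No sequences were used here.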

Additional observations from a re-analysis of the deposited data

How the results depend on the processing

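Against the mid cold apex, leaving out 1 library gave 1503 to 1878 genes, 712 to 898 higher and 773 to 1025 lower, and the other settings gave 2154 to 2857. Against the late cold apex, leaving out 1 library gave 373 to 590 genes, DESeq2 1140, the 6 libraries alone 1465, and a replicate block on them 2317. With that block the mid cold apex count was 2326, so the smaller distance to the late cold apex in gene counts was not seen there. The cause was not tested. In the fit to all libraries the replicate block gave 2528 and 798. Replicate numbers did not pair the bud and mid cold apex libraries, since deviations of same-numbered libraries correlated at 0.005, −0.073 and 0.004. For the bud and the late cold apex the same-numbered values were −0.115, −0.0496 and 0.212. Bud replicate 1 and late cold apex replicate 2 correlated at 0.211. Against the midpoint, leaving out 1 library gave 692 to 1327 genes. The distance ratio was 1.09 to 1.2 with 1 library left out and 1.19 without the 10% most variable genes.

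Some signs reversed. Against the mid cold apex, leaving out 1 library gave −0.00804 (without its replicate 1) to 0.327 for STM (Aa_G408930) and −0.0289 (without its replicate 1) to 0.305 for CUC2 (Aa_G141220). Against the midpoint, it gave −3.18 (without bud replicate 1) to 2.09 for AP3 (Aa_G300500), −0.339 to 0.39 for SPL4 (Aa_G381970) and −0.121 to 0.0457 for STM; SPL4 was at 0.137 without bud replicate 1, and SPL4 and STM were highest without mid cold apex replicate 3. With TPM values and limma, the midpoint differences were −1.01 for AP1 (Aa_G283230), −0.15 for SEP4 (Aa_G675730), −1.19 for AP3 and 0.0480 for SPL4. None of these values passed in the reported fit, and the cause was not tested. Of 1881 values for 135 named genes against the mid cold apex, 1638 kept direction and side of the threshold, 229 lost the call and 12 gained it. Depth limits genes near 1 CPM, such as CLV3.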
